A study of Arabidopsis thaliana with 38 samples.

Results

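CSP1-IP RNA was set against total RNA in cold-treated rosettes of the Arabidopsis thaliana line 35S:AtCSP1-FH#11, here called CSP1-FH. The comparison was defined by the sample titles and holds 4 of the 38 arrays of the series, 2 of CSP1-IP and 2 of total RNA. All 22746 probe sets that are not array controls were compared. The series covers 3 lines, non-stress and cold conditions, and total, polysomal and CSP1-IP RNA, on Affymetrix ATH1 arrays with 1 array per RNA sample.

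CSP1-FH plants are in the Col-0 accession and express a tagged CSP1 from the 35S promoter, a constitutive promoter that is active in most cell types. Only 1 line of this construct was profiled. The plants were 25 days old and were kept for 12 h at 4 °C, in a chamber that also had weaker light than the growth room. Leaves for CSP1-IP were cross-linked with formaldehyde, and RNA was recovered with antibody-coated beads. Much less RNA was labelled for CSP1-IP than for the other pools, according to the labels, although the unit of the larger amount is missing. The other groups used for comparison were CSP1-IP and total RNA of the same line kept at 23 °C without stress (2 arrays each), polysomal RNA of the cold CSP1-FH plants (2 arrays), and CSP1-IP and total RNA of cold 35S:HF-RPL18 plants (3 arrays each). That second line, HF-RPL18, carries a tagged ribosomal protein from the same promoter and no tagged CSP1, and the antibody used was raised against CSP1 in both lines. CSP1-IP from plants without CSP1 was not analysed here, so RNA bound to the beads by other means has no array of its own.

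CSP1 is a small RNA-binding protein with a cold shock domain and zinc knuckles. Proteins of this family can loosen RNA secondary structure, and in bacteria they help translation go on in the cold. RNA immunopurification recovers the RNAs attached to such a protein, and setting them against total RNA shows which transcripts take a larger or smaller share of the bound pool than of the whole. The deposited values are log2 expression values scaled within each array, so a difference of 1 is a doubling of a transcript's relative level and says nothing of absolute amounts. The arrays gave no named probe set for CSP1 or its relatives, so the tagged gene itself was not checked.

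The 2 pools differed in more than single genes. On the CSP1-IP arrays of the whole series the spread over probe sets (SD 1.83 to 2.14) was narrower than on total RNA arrays (SD 2.27 to 2.32). The control probe sets for the 3′ and 5′ ends of the same transcript also separated the pools. For GAPDH, a glycolytic enzyme, the 3′ probe set exceeded the 5′ probe set by 7.44 and 7.52 on the cold CSP1-FH CSP1-IP arrays, against 1.05 and 1.28 on the total RNA arrays. For this pair the 3′ signal was 11.01 and 11.19 in CSP1-IP and 11.04 and 11.01 in total RNA, while the 5′ signal was 3.57 and 3.67 in CSP1-IP and 9.99 and 9.73 in total RNA. The 3′ signal of the other GAPDH pair was lower in CSP1-IP, at 10.24 and 9.82, against 11.42 and 11.35 in total RNA, and so were those of both actin pairs, at 9.20 to 10.39 in CSP1-IP and 10.41 to 11.30 in total RNA. In 5 of 6 such control pairs the 2 CSP1-IP arrays lay above the 2 total RNA arrays. Probe sets that lie far from a transcript's 3′ end can therefore read lower in CSP1-IP than those near it, and the part this plays in the differences below was not tested.

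**Figure D1:**
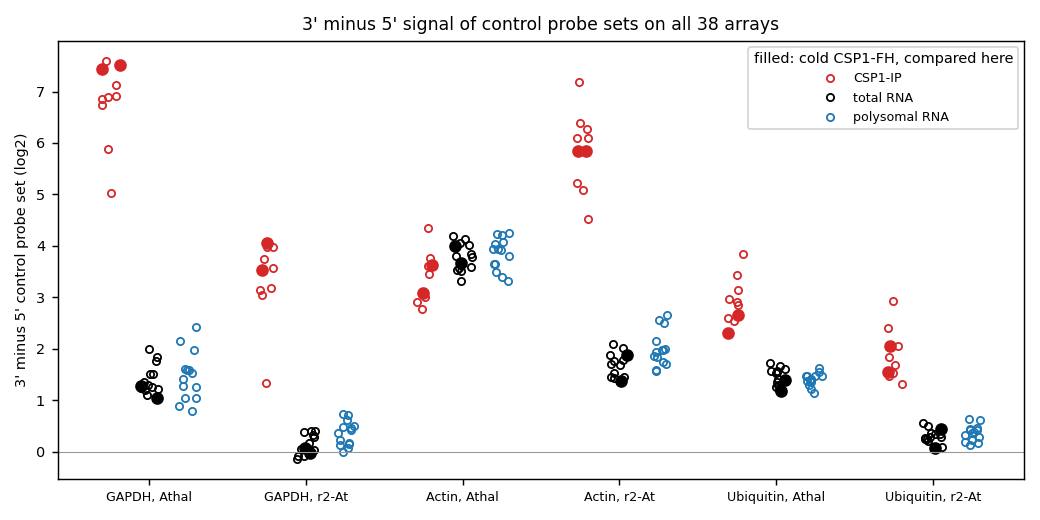
Log2 signal of the 3′ minus the 5′ control probe set of 6 pairs (x axis) on each of the 38 arrays, with CSP1-IP left in red, total RNA in the middle in black and polysomal RNA right in blue. Filled points are the cold CSP1-FH arrays of CSP1-IP and total RNA, which for the first GAPDH pair are 7.44 and 7.52 against 1.05 and 1.28.

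In the deposited values 3085 probe sets were higher in CSP1-IP (13.6% of those tested) and 3182 were lower (14%), with limma and an adjusted p below 0.05. Without adjustment 9108 had a p below that limit. The values were strongly tied to the level in total RNA. Among the dimmest quintile of probe sets, 20.5% were higher and 0% were lower in CSP1-IP, whereas among the brightest quintile 7.12% were higher and 42.2% were lower. The median difference was 0.37 in the dimmest quintile and −0.76 in the brightest. Rescaling all arrays by cyclic loess, which removes such trends between arrays, brought these medians to 0 and −0.24 and the median of all probe sets to −0.01, against 0.16 before. After loess 2179 probe sets were higher (9.58%) and 2114 were lower (9.29%). Results are given in both scalings, and the firmest calls are those made in both, which were 1514 higher (6.66%) and 1907 lower (8.38%) in CSP1-IP. No probe set was called in opposite directions by the scalings.

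The number of calls leaned on single arrays. Without total RNA replicate 1 the deposited values gave 3358 calls in all, and without total RNA replicate 2 they gave 3604, against 6267 with all arrays. The 2 CSP1-IP arrays also differed more from each other than the total RNA arrays did, with half-differences of SD 0.301 in CSP1-IP and 0.177 in total RNA over all probe sets. Of the calls made in both scalings, 1512 of 1514 higher and 1906 of 1907 lower ones showed no overlap between the 2 and 2 arrays. Over all probe sets 68% showed no overlap (40.5% with CSP1-IP higher and 27.5% with it lower), so such separation was common and adds little to the calls.

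**Figure D2:**
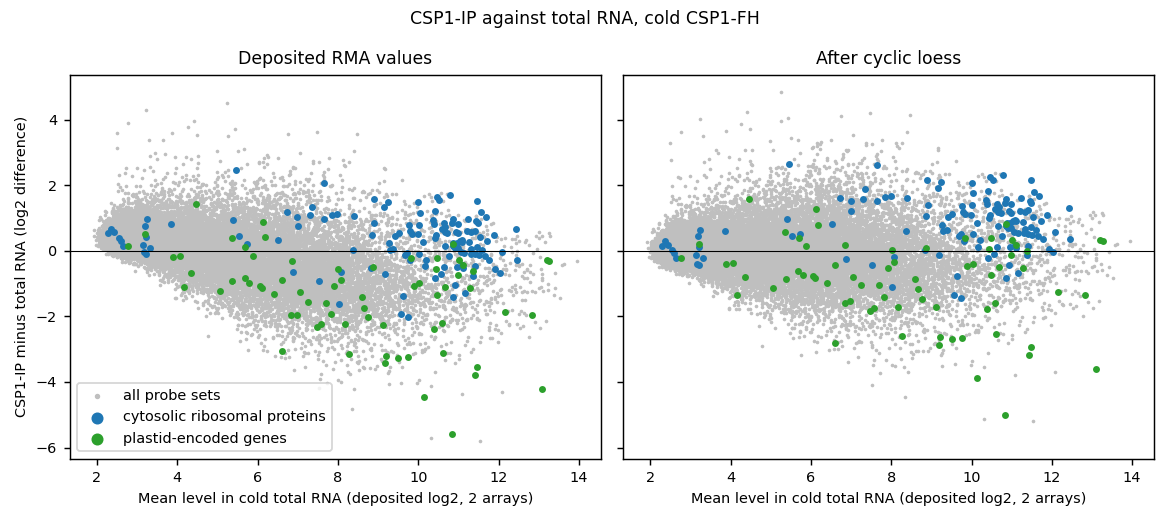
CSP1-IP minus total RNA (y axis, log2) against the mean level in cold total RNA (x axis, deposited log2) for all probe sets in grey, cytosolic ribosomal protein genes in blue and plastid-encoded genes in green, before (left) and after (right) cyclic loess. The grey cloud slopes down in the deposited values and is level after loess, while blue points stay mostly high among bright genes and green points mostly low.

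The mRNAs most enriched in CSP1-IP were named from probe sets that the annotation assigns to 1 gene. Of the 12 largest positive differences called in both scalings, 11 belong to loci that the annotation lists by identifier only, and the remaining one is RALFL32, which encodes a RALF-like secreted signalling peptide. AT2G15880 on chromosome 2 read 7.82 and 7.22 in CSP1-IP, against 3.39 and 3.05 in total RNA. This 19.6-fold difference (4.30 ± 0.49 SE in log2, limma adjusted p = 4.48e-07) was the largest among named genes, and its total RNA signal was close to the dim end of the array. AT4G22160 read 7.62 and 8.44 in CSP1-IP, against 4.25 and 4.26 in total RNA, a difference of 3.77 ± 0.37 (adjusted p = 4.41e-08).

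AT2G35750 read 8.88 and 9.42 in CSP1-IP and 5.34 and 5.51 in total RNA, a difference of 3.72 ± 0.27 (adjusted p = 4.94e-10) that was 4.05 after loess. AT5G01015 was already well expressed, at 10.30 and 10.32 in CSP1-IP and 6.67 and 6.82 in total RNA. RALFL32 read 8.62 and 8.90 in CSP1-IP, against 4.96 and 5.55 in total RNA. No overlap of the arrays was a condition for naming a gene here. In each of these genes the gap between the pools was also larger than the difference between the arrays of a pool. AT2G14800 was less even within CSP1-IP, with 5.41 and 6.80, against 2.53 and 2.46 in total RNA. The other 6 genes (AT1G54050, AT3G27340, AT3G61550, AT1G78480, AT4G12760 and AT4G37380) differed by 2.85 to 3.38.

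Several of these differences were also large without stress or in the line without tagged CSP1. In CSP1-FH without stress, AT2G35750 read 9.73 and 9.36 in CSP1-IP and 5.38 and 5.39 in total RNA, and in cold HF-RPL18 it read 9.70, 8.92 and 9.13 in CSP1-IP and 5.11, 5.22 and 5.39 in total RNA. AT2G15880 was the most uneven of the 12. Its CSP1-IP level was 3.01 and 5.24 in non-stress CSP1-FH, against total RNA at 2.57 and 2.88, and 9.31, 8.44 and 8.98 in cold HF-RPL18, against total RNA at 3.22, 3.87 and 2.72. Its cold minus non-stress change in difference was 2.89 (adjusted p = 0.0929) and its CSP1-FH minus HF-RPL18 change was −1.34 (adjusted p = 0.437), so neither passed. AT1G54050 had a difference of 3.38 in cold CSP1-FH and 1.38 in cold HF-RPL18, and that contrast of 2.00 did not pass either (adjusted p = 0.12).

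**Figure D3:**
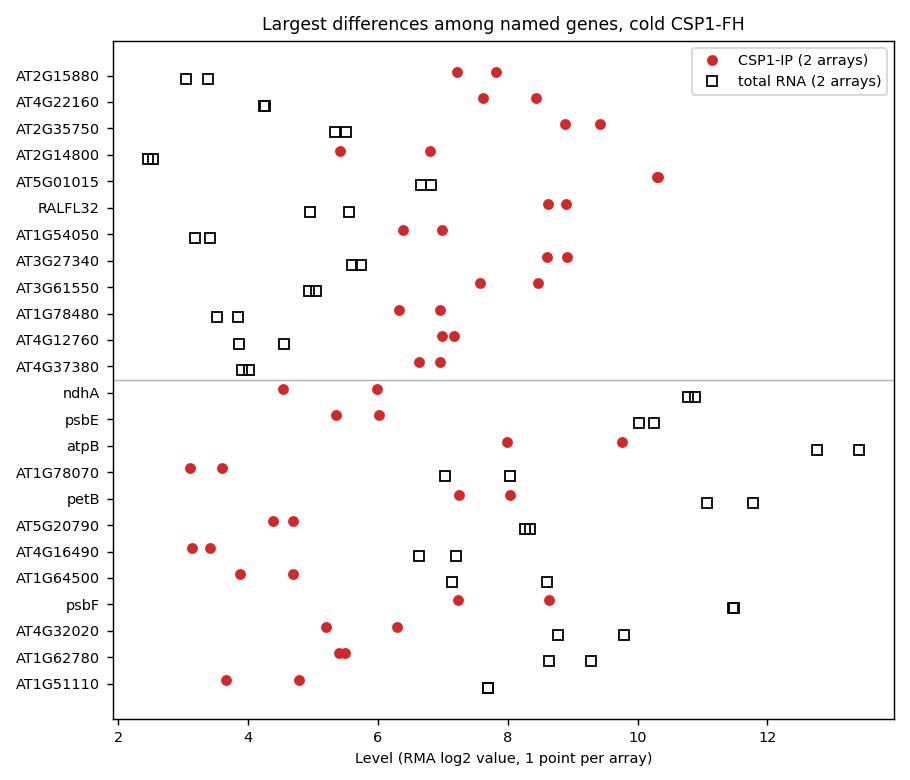
Level (x axis, deposited log2) on each array for the 12 named genes with the largest positive and the 12 with the largest negative difference (rows), CSP1-IP as filled red circles and total RNA as open black squares. The genes were chosen for having no overlap of the arrays, so the 2 red and 2 black points are apart in every row by that choice. Red lies to the right in the upper 12 and to the left in the lower 12.

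The most depleted named transcripts were those of the plastid genome together with several nuclear mRNAs. ndhA, a plastid gene for a subunit of the NADH dehydrogenase-like complex, read 4.54 and 5.98 in CSP1-IP, against 10.78 and 10.89 in total RNA. It was 47.9-fold lower in CSP1-IP (−5.58 ± 0.46, adjusted p = 3.15e-09). psbE, which encodes a subunit of cytochrome b559 in photosystem II, read 5.36 and 6.02 in CSP1-IP and 10.25 and 10.03 in total RNA. atpB, for the beta subunit of the plastid ATP synthase, read 7.99 and 9.76 in CSP1-IP and 12.77 and 13.41 in total RNA. petB, for cytochrome b6 of the cytochrome b6f complex, differed by −3.78 ± 0.41, and psbF, for the other subunit of cytochrome b559, by −3.54 ± 0.39. All 5 were lower in both CSP1-IP arrays than in both total RNA arrays, which the choice of named genes required.

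The other 7 depleted genes are nuclear. AT4G16490 read 3.13 and 3.42 in CSP1-IP and 7.20 and 6.63 in total RNA (−3.64 ± 0.25, adjusted p = 3.21e-10). AT1G78070 read 3.11 and 3.60 in CSP1-IP and 8.04 and 7.03 in total RNA. AT5G20790 read 4.69 and 4.38 in CSP1-IP and 8.34 and 8.27 in total RNA. These mRNAs were plain in total RNA. In CSP1-IP AT4G16490 and AT1G78070 were near the dim end, while AT5G20790 was near the medians of the 2 arrays (4.44 and 4.50). AT1G64500 (−3.60), AT4G32020 (−3.53), AT1G62780 (−3.51) and AT1G51110 (−3.47) followed. AT1G64500 lost its call without total RNA replicate 1 (−2.87, adjusted p = 0.104) and without CSP1-IP replicate 2 (−3.19, adjusted p = 0.0573); the other 23 of the 24 genes kept theirs whichever of the 4 arrays was left out.

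Among probe sets without a single annotated gene, 521 were higher and 1038 were lower in both scalings. They hold 1 positive difference larger than that of AT2G15880 (4.51) and 2 negative ones larger than that of ndhA (the largest −5.80), which are not named here. Several probe sets measured 152 of the genes, of which 103 had differences of the same sign in all their probe sets and 2 were called in opposite directions.

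Cytosolic ribosomal protein mRNAs, which encode the proteins of the cytoplasmic ribosome, were more often higher than lower in CSP1-IP, in the deposited values and after loess. Of 225 listed genes 131 had a named probe set. In the deposited values 30 members were higher (22.9%, against 13.6% of all probe sets) and 9 were lower (6.87%, against 14%), with a median of 0.34. After loess 64 were higher and 3 were lower, with a median of 0.80, against −0.01 over all probe sets. In both scalings 28 were higher and 3 lower. These genes are bright: 110 of the 131 lie in the brightest quintile, where the median of all probe sets was −0.76 in the deposited values and that of the ribosomal protein genes was 0.30. In that quintile 23.6% of the ribosomal protein genes were higher and 8.18% lower, against 7.12% and 42.2% of all probe sets there, and after loess 56.4% were higher and 2.73% lower, against 15.4% and 21.9%. Without total RNA replicate 1 the deposited counts were 18 higher and 5 lower, and without total RNA replicate 2 or CSP1-IP replicate 2 they were 20 higher and 3 lower.

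Large subunit genes held several of the larger differences. AT3G02190 (RPL39B) read 9.45 and 10.01 in CSP1-IP, against 7.71 and 7.59 in total RNA, a 4.22-fold difference (2.08 ± 0.31, adjusted p = 2.04e-05). AT5G60670 (RPL12C) read 12.33 and 12.66 in CSP1-IP and 10.69 and 10.89 in total RNA. AT3G16080 (RPL37C) read 12.27 and 11.97 in CSP1-IP and 10.55 and 10.39 in total RNA. The CSP1-IP arrays lay above the total RNA arrays for all 3 genes, and AT2G19740 (RPL31A) and AT4G26230 (RPL31B) showed 1.59 and 1.54. Of 70 measured large subunit genes 19 were higher (27.1%, against 13.6% of all probe sets) and 4 lower (5.71%, against 14%), with a median of 0.45. After loess 38 were higher (54.3%, against 9.58%) and 2 lower (2.86%, against 9.29%), with a median of 0.91. Without total RNA replicate 1 the deposited values gave 11 higher, and without total RNA replicate 2 or CSP1-IP replicate 2 they gave 13 higher and 2 lower.

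Differences of small subunit genes were smaller, and this contrast with the large subunit was not tested. AT3G47370 (RPS20B) read 11.61 and 11.67 in CSP1-IP and 10.38 and 10.45 in total RNA (1.23 ± 0.24, adjusted p = 0.000515). AT4G39200 (RPS25E) and AT4G34555 (RPS25D), which encode the same small subunit protein, differed by 1.18 and 1.09. Of 48 small subunit genes 8 were higher (16.7%, against 13.6% of all probe sets) and 4 lower (8.33%, against 14%), with a median of 0.26. The higher share was thus near that of all probe sets. After loess 18 were higher (37.5%, against 9.58%) and 1 lower (2.08%, against 9.29%), with a median of 0.68. With any of the 4 arrays left out, the deposited values gave 4 or 5 higher and 1 or 2 lower.

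The stalk proteins form the arm of the large subunit that contacts elongation factors. AT2G40010 (RPP0A), for the stalk base P0, read 7.99 and 7.84 in CSP1-IP and 5.52 and 5.39 in total RNA, which is 5.50-fold (2.46 ± 0.37, adjusted p = 2.45e-05) and the largest difference of the ribosomal protein list. AT3G09200 (RPP0B) read 12.89 and 13.11 in CSP1-IP and 11.52 and 11.42 in total RNA. Another P0 gene, AT3G11250 (RPP0C), read 6.67 and 6.56 in CSP1-IP and 7.44 and 7.62 in total RNA. The 3 P0 genes thus differed in direction. RPP0C was called lower (−0.92, adjusted p = 0.0164), but not after loess (−0.43, adjusted p = 0.332) and not when any of the 4 arrays other than CSP1-IP replicate 1 was left out (adjusted p 0.0521 to 0.107). Of the 13 stalk genes 3 were higher (23.1%, against 13.6% of all probe sets) and 1 lower (7.69%, against 14%). After loess 8 were higher (61.5%, against 9.58%) and 0 lower.

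A few ribosomal protein mRNAs were clearly depleted. AT2G17360 (RPS4A) read 7.81 and 7.64 in CSP1-IP, against 9.60 and 9.87 in total RNA (−2.01 ± 0.41, adjusted p = 0.00073), and it was also lower in non-stress CSP1-FH (−1.68) and in cold HF-RPL18 (−3.12). AT4G10450 (RPL9D) read 7.92 and 7.36 in CSP1-IP and 9.52 and 9.60 in total RNA (−1.92 ± 0.39). Both stayed lower after loess, at −1.44 and −1.35. The 9 members lower in the deposited values, of which 3 were lower in both scalings, had a median gene span of 1743 bp on the chromosome. That of all 131 was 1533 bp. After loess, the 64 higher members had 1442 bp and the 67 others 1620 bp.

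Many transcripts of the plastid genome were lower in CSP1-IP. Plastid mRNAs are made and translated inside chloroplasts, by ribosomes of a bacterial type. Of 69 plastid-encoded genes 24 were lower (34.8%, against 14% of all probe sets) and 0 higher, with a median difference of −1.09. After loess 15 were lower and 0 higher, with a median of −0.78, and these 15 were lower in both scalings. Within the brightest quintile 47.8% of the 46 plastid genes there were lower, against 42.2% of all probe sets there, and after loess 28.3%, against 21.9%. The share of lower plastid genes was thus near that of other bright probe sets, while their median difference was −1.66, against −0.76 for all probe sets there.

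The plastid transcripts also moved together between replicates. In replicate 2, 64 of 69 read higher than in replicate 1 in CSP1-IP and 64 of 69 did so in total RNA, with median shifts of 1.43 and 1.42, and 63 did so in polysomal RNA. Over all probe sets the medians of these shifts were −0.01 in CSP1-IP and 0.02 in total RNA. With the replicate number as a block, 27 plastid-encoded genes were lower and 0 higher, with a median of −1.09. Leaving out 1 array makes the replicate numbers of the 2 pools unequal, so the shift between replicates also enters the values that follow. Without CSP1-IP replicate 1, 13 members were lower and 1 was higher (median −0.43), and without total RNA replicate 2, 14 were lower (median −0.42). The median was −1.87 without total RNA replicate 1 and −1.83 without CSP1-IP replicate 2, with 25 and 30 lower.

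By complex, the plastid ATP synthase genes were lowest (6 genes, median −2.70, 4 lower), with atpA at 5.74 and 7.31 in CSP1-IP and 9.00 and 10.51 in total RNA, and atpI at 3.30 and 3.79 in CSP1-IP and 5.77 and 7.44 in total RNA. Photosystem genes came next (20 genes, median −1.71, 10 lower), among them psbC (−3.21), psbH (−3.14), psbK (−3.11) and psbJ (−2.37). The psbC call did not hold without total RNA replicate 2 (−2.42, adjusted p = 0.0575). Genes of the NADH dehydrogenase-like complex had a median of −1.31 with 4 of 10 lower (40%). Those of plastid ribosomal proteins had −0.89 with 3 of 15 lower (20%), and those of the cytochrome b6f complex −0.54 with 2 of 6 lower (33.3%). The shares were 66.7% for ATP synthase and 50% for photosystem genes, against 14% of all probe sets and 42.2% of the brightest quintile. The share of plastid ribosomal proteins was near that of all probe sets. The 4 genes of the plastid RNA polymerase had a median of −0.03 with none called. These values leaned on single arrays. Without CSP1-IP replicate 1 the counts of lower genes were 7 for photosystems, 1 for the NADH dehydrogenase-like complex, 0 for plastid ribosomal proteins (median 0.04) and 1 for cytochrome b6f. Without total RNA replicate 2 they were 6, 2, 1 and 1 (cytochrome b6f median 0.26), and without CSP1-IP replicate 2 the plastid ribosomal proteins had 8. Medians for the 6 ATP synthase genes ran from −3.68 to −1.71 with 1 array left out, with 3 or 4 lower. Some bright plastid transcripts did not pass. psbA, for the D1 protein of photosystem II, read 7.75 and 8.98 in CSP1-IP and 7.90 and 9.83 in total RNA. rbcL, for the large subunit of Rubisco, read 8.43 and 9.81 in CSP1-IP and 9.45 and 11.49 in total RNA (−1.36, adjusted p = 0.124). The arrays of the pools overlapped in both genes, although within each replicate number CSP1-IP was the lower, and a lack of a call does not show that they did not differ.

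Transcripts of the mitochondrial genome had 23 probe sets with a median of 0.43, and after loess a median of 0.10 with none called. In the deposited values 3 were higher (13%, against 13.6% of all probe sets) and 0 lower. Their median levels in total RNA were 3.04 and 3.20, where almost no probe set was called lower, so they allow no contrast with the plastid genes. The higher calls for nad9, ccb203 and matR (0.57 to 0.77) lay in the range of level where the deposited values tilt upward. None of the 3 passed after loess (adjusted p 0.294 to 0.581) or without total RNA replicate 1 (adjusted p 0.151 to 0.379).

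**Figure D4:**
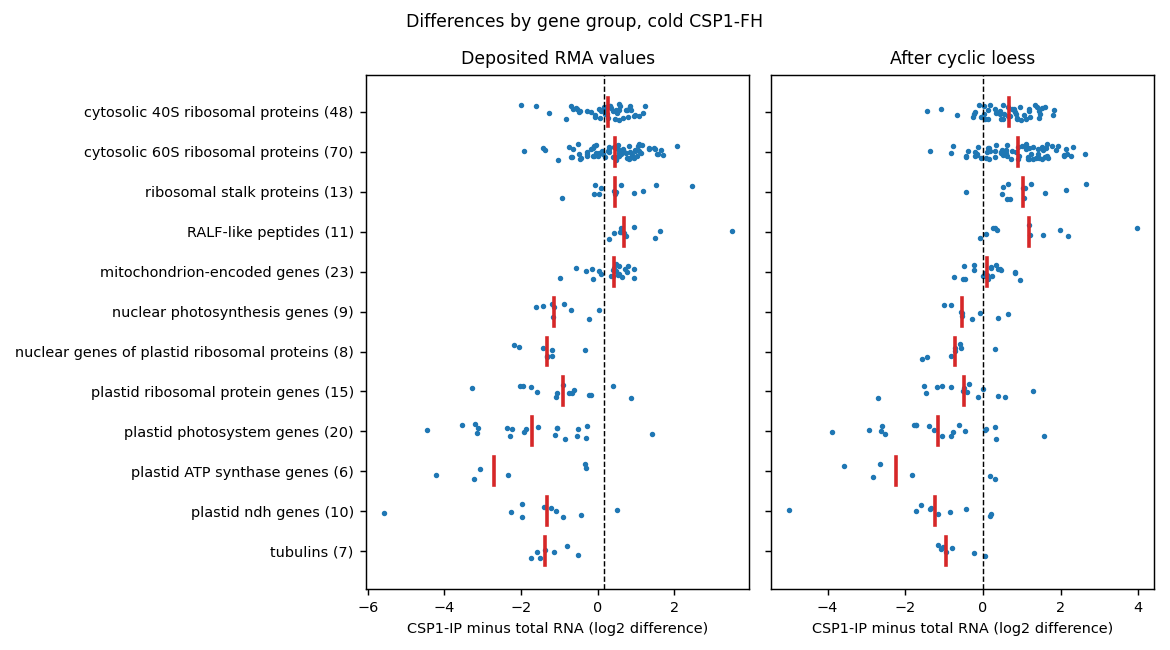
CSP1-IP minus total RNA (x axis, log2) of each member of 12 gene groups (rows, with the number of probe sets), before (left) and after (right) cyclic loess; red bars are group medians and the dashed line is the median of all probe sets. Large subunit, small subunit and stalk genes lie mostly right of the line, plastid groups and tubulins mostly left.

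Nuclear genes whose products work in chloroplasts were mostly lower in CSP1-IP in the deposited values, and fewer of them were called lower after loess. Of 9 measured photosynthesis genes 7 were lower (77.8%, against 14% of all probe sets and 42.2% of the brightest quintile) and 0 higher, with a median of −1.15. After loess 2 were lower (22.2%, against 21.9% of the brightest quintile) and 1 higher (11.1%, against 15.4%), so these shares were near those of other bright probe sets. RCA, for Rubisco activase, read 12.48 and 11.70 in CSP1-IP and 13.44 and 13.60 in total RNA (−1.43 ± 0.32, adjusted p = 0.00155). ATPC1, for the gamma subunit of the plastid ATP synthase, read 11.44 and 10.70 in CSP1-IP and 12.24 and 12.29 in total RNA (−1.19 ± 0.24, adjusted p = 0.000657). These 2 stayed lower after loess (−0.82 and −0.57), while the photosystem I gene PSAE-1, at 13.10 and 12.94 in CSP1-IP and 13.07 and 12.86 in total RNA, was called higher after it (0.66). Without total RNA replicate 1 or CSP1-IP replicate 2 only 3 of the 9 were called lower. These genes are typical of green leaves, and RCA and PSAE-1 lay in the brightest quintile of probe sets in total RNA of the rosettes.

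Plastid ribosomal proteins encoded in the nucleus had 8 measured genes with a median of −1.32. Of these 6 were lower (75%, against 14% of all probe sets and 42.2% of the brightest quintile) and 0 higher. After loess 3 were lower (37.5%, against 21.9% of the brightest quintile), with a median of −0.72. AT1G64510, for plastid S6, read 8.59 and 8.64 in CSP1-IP and 10.84 and 10.73 in total RNA (−2.17 ± 0.30, adjusted p = 7.95e-06). AT3G13120, for plastid S10, differed by −2.04 and AT4G01310, for plastid L5, by −1.42. These 3 were lower in both scalings. Without CSP1-IP replicate 2 the deposited values gave 3 of the 8.

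Some smaller groups of mostly bright genes were also lower for several members. Of 7 tubulin genes, which encode the subunits of microtubules, 4 were lower (57.1%, against 14% of all probe sets and 42.2% of the brightest quintile, median −1.38). Without total RNA replicate 1 only 1 was lower, since TUA6, TUB7 and TUB5 did not pass (adjusted p 0.0782 to 0.101). TUA1 alone stayed lower after loess (−1.02, adjusted p = 0.0362), at 6.48 and 6.00 in CSP1-IP and 7.55 and 7.92 in total RNA. The translation factor genes EIF4A-2 and AT5G19510 (EF1B-A2) were lower in the deposited values (−1.01 and −1.14) and did not pass after loess (−0.42 and −0.53). PRH75, for a nucleolar RNA helicase, read 7.64 and 7.44 in CSP1-IP and 9.01 and 9.13 in total RNA (−1.54, adjusted p = 0.035), and did not pass after loess (adjusted p = 0.19). PRH75 did not pass when any of the 4 arrays was left out (adjusted p 0.0875 to 0.134). EIF4A-2 did not pass without total RNA replicate 1 (0.0661), total RNA replicate 2 (0.1) or CSP1-IP replicate 2 (0.107), nor AT5G19510 without CSP1-IP replicate 1 (0.125) or total RNA replicate 2 (0.0792), all as adjusted p.

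Markers of other leaf cell types gave little. The stomatal regulators SPCH and MUTE read 2.58 to 4.10 in CSP1-IP and 2.76 to 3.46 in total RNA, near the dim level of 3.13 (the 25th percentile of mean levels over all arrays), and did not pass. FMA, which acts at the last step of guard cell formation, read 3.84 and 3.26 in CSP1-IP and 4.55 and 4.35 in total RNA (−0.90, adjusted p = 0.0311; after loess −1.09, adjusted p = 0.0117), and it did not pass when any of the 4 arrays other than CSP1-IP replicate 1 was left out (adjusted p 0.0747 to 0.252). The guard cell list had 1 of 4 members called, and TRY, a trichome regulator, was at 3.85 and 3.46 in CSP1-IP and 2.93 and 2.95 in total RNA (adjusted p = 0.496).

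The RALF-like peptides, small secreted signals read by receptor kinases, were higher in CSP1-IP for most members. Of 11 genes 7 were higher, against 13.6% of all probe sets, and 0 lower (median 0.68). After loess 5 were higher, against 9.58% of all (median 1.19), 4 of them in both scalings. RALFL24 read 9.03 and 8.78 in CSP1-IP and 7.31 and 7.24 in total RNA (1.63 ± 0.23, adjusted p = 1.15e-05). RALFL34 read 9.81 and 9.92 in CSP1-IP and 8.98 and 8.83 in total RNA (0.96, adjusted p = 0.00192). RALFL31 read 7.22 and 7.77 in CSP1-IP and 6.14 and 5.84 in total RNA (1.50, adjusted p = 0.00916), but did not pass without total RNA replicate 2 (adjusted p = 0.0763) or CSP1-IP replicate 2 (adjusted p = 0.0879). The 7 higher calls became 4 without total RNA replicate 1 or CSP1-IP replicate 1, and 3 without total RNA replicate 2. The family was picked after its names and earlier results were known, and its genes are short (median span 809 bp, against 2117 bp for all annotated genes).

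Gene span on the TAIR10.1 chromosomes went with the direction of the call more broadly, but not steadily. Nuclear genes higher in both scalings had a median span of 1768 bp (quartiles 1189 and 2606), those lower in both 2613 bp (2062 and 3356), and the rest 2105 bp. After loess 12.2% of the shortest quintile of genes were higher and 1.53% lower, against 6.88% and 9.35% of the longest quintile. In the deposited values the shares were 21.7% and 1.61% for the shortest quintile and 12.8% and 11.9% for the longest. The share of lower genes was largest in quintile 4 (16.6%, and 11.7% after loess). The shortest quintile is also the dimmest, with a median total RNA level of 2.96 against 4.23 for the longest. Span includes introns and is only a stand-in for mRNA length, and since the 3′ to 5′ signal also differed between the pools, the part of either in this pattern was not tested.

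Cold-induced mRNAs were present in CSP1-IP. Where cold and non-stress plants are set side by side in these bulk samples, a change in the number of cells of a type and in RNA per cell cannot be told apart. LTI30, a dehydrin, read 11.79 and 11.53 in CSP1-IP and 12.96 and 12.85 in total RNA in the cold, and 4.52 and 4.75 in CSP1-IP and 4.45 and 4.81 in total RNA without stress. The cold induction was thus plain in both pools, and the CSP1-IP minus total difference in the cold did not pass (−1.24, adjusted p = 0.0925). COR47, another dehydrin, read 12.24 and 12.20 in CSP1-IP and 13.34 and 13.13 in total RNA. It was called lower (−1.02, adjusted p = 0.0391), but not after loess (−0.40, adjusted p = 0.562), nor when any of the 4 arrays was left out (adjusted p 0.0911 to 0.185). COR15A and COR15B, for proteins that protect chloroplast membranes during freezing, differed by −0.82 and −0.73, and STZ, a zinc finger repressor, by 1.55, and none of them passed (adjusted p 0.103 to 0.333).

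A wider view used probe sets that cold changed in total RNA of HF-RPL18, arrays that the present comparison does not use. There 1210 probe sets were higher (5.32%) and 1237 lower (5.44%) in the cold. Of the 1210 higher ones, 32.3% were lower and 5.45% higher in CSP1-IP than in total RNA of cold CSP1-FH (median −0.63), and after loess 22.8% were lower and 7.85% higher. They are bright, with a median total RNA level of 7.17. In the brightest quintile of all probe sets, which starts at 6.98, 42.2% were lower and 7.12% higher, and after loess 21.9% and 15.4%. The median level of that quintile was 8.24, above that of the cold-higher set, so these shares are not matched for level. In quintile 4, the next by level, 21.3% were lower in the deposited values, and the 32.3% of the set lay between these shares. After loess the lower share of the set was near that of the brightest quintile. Its higher share after loess (7.85%) was below the 15.4% there. Of the 1237 probe sets lower in the cold, 16.5% were lower and 11.3% higher in CSP1-IP (median −0.01), and after loess 9.30% were lower and 16.9% higher. Cold nonetheless changed these mRNAs in CSP1-IP of CSP1-FH mostly in the same direction, for 90.2% of the first set and 84.2% of the second, against 47.7% and 52.3% of all probe sets.

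A few mRNAs had a CSP1-IP minus total difference that changed with cold. In CSP1-FH the change passed for 23 probe sets (0.101% of those tested, 2147 without adjustment), 7 with a higher and 16 with a lower difference in the cold. AT5G20790 read 4.69 and 4.38 in CSP1-IP and 8.34 and 8.27 in total RNA in the cold, and 4.20 and 4.01 in CSP1-IP and 3.58 and 3.44 in total RNA without stress. Its level in total RNA was thus much higher in the cold while its level in CSP1-IP was nearly the same, a change of −4.36 ± 0.65 (adjusted p = 0.0022). AT5G62280 changed in the same direction, with 5.33 and 5.25 in CSP1-IP and 8.32 and 8.66 in total RNA in the cold, against 3.65 and 3.46 in CSP1-IP and 3.17 and 3.11 in total RNA without stress (−3.62 ± 0.75, adjusted p = 0.0489). AT2G30600 showed −3.14 ± 0.59 (adjusted p = 0.0352).

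These mRNAs were also depleted in CSP1-IP of cold HF-RPL18, by −3.59 for AT5G20790, −3.81 for AT5G62280 and −2.97 for AT2G30600. AT5G62280 did not pass when any of the 8 arrays of the contrast was left out, except non-stress CSP1-IP replicate 1, and AT2G30600 did not pass without replicate 1 of cold total RNA or cold CSP1-IP, either non-stress total RNA array or non-stress CSP1-IP replicate 2 (adjusted p 0.0848 to 0.177). AT5G20790 passed in all of these cases. The count of 23 was itself unstable, at 5 without cold total RNA replicate 1 or either non-stress total RNA array, 8 without cold total RNA replicate 2, 10 without cold CSP1-IP replicate 1, 40 and 66 without replicate 2 of non-stress and of cold CSP1-IP, and 439 without non-stress CSP1-IP replicate 1.

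**Figure D5:**
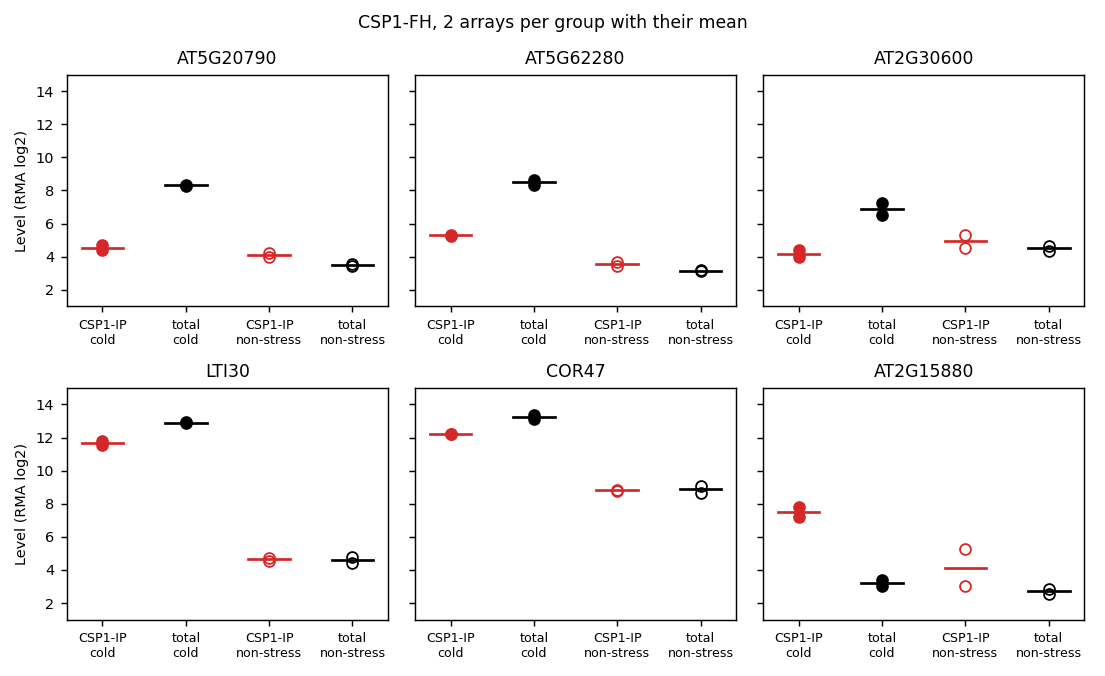
Level (y axis, deposited log2) of 6 genes in CSP1-FH, in CSP1-IP and total RNA of cold plants (filled) and of non-stress plants (open), with 1 point per array and bars at the mean of 2. AT5G20790 and AT5G62280 are highest in cold total RNA, LTI30 and COR47 are high in both cold pools, and AT2G15880 is highest in cold CSP1-IP.

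Many of the calls in cold CSP1-FH were also made in cold HF-RPL18, whose arrays are separate. There 32% of all probe sets were higher and 23.8% lower in CSP1-IP, and 15.5% and 15.6% after loess. Of the probe sets called in cold CSP1-FH, 70.1% of the higher and 91.6% of the lower were called in the same direction in cold HF-RPL18, which is 29.8% and 54% of that line's own higher and lower calls. After loess the shares were 74.3% and 77.4% of the CSP1-FH calls, and 45.8% and 46.1% of the HF-RPL18 calls. The differences of the 2 lines correlated across the 22746 probe sets (Pearson r = 0.85, and 0.82 after loess). This r is a description, since probe sets are not replicates and both lines share the trend with level. In non-stress CSP1-FH 54.6% of the higher and 76.7% of the lower calls recurred, 39% and 62.4% of the calls made there, where 19% of all probe sets were higher and 17.2% lower. After loess 71.2% and 61.1% recurred, where 12.8% of all were higher and 11.1% lower. Ribosomal protein genes had a median difference of 0.34 in cold CSP1-FH, 0.11 in cold HF-RPL18 and 0.56 in non-stress CSP1-FH, and 0.80, 0.69 and 1.29 after loess. Plastid-encoded genes had −1.09, −1.28 and −1.57 in the same order, and −0.78, −0.58 and −1.05 after loess, so that the order of the 2 lines turned with the scaling.

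The difference between the lines passed for 13 probe sets (0.0572%, 2472 without adjustment), 7 with a higher difference in CSP1-FH and 6 with a lower one. None is a member of the gene lists. AT1G20580 read 7.83 and 7.50 in CSP1-IP and 7.69 and 7.47 in total RNA of cold CSP1-FH, and 5.31, 5.78 and 5.58 in CSP1-IP and 7.43, 7.27 and 7.46 in total RNA of cold HF-RPL18 (change 1.91 ± 0.27, adjusted p = 0.00117). In the deposited values this mRNA was thus at nearly the same level in both pools of the tagged CSP1 line (0.09) and depleted in CSP1-IP of the other. In the brightest quintile, where it lies, the median of all probe sets was −0.76. After loess its difference in CSP1-FH was 0.59 (adjusted p = 0.0638). AT4G02340 had the same form in the deposited values, with 7.37 and 7.15 in CSP1-IP and 7.53 and 7.12 in total RNA of CSP1-FH. That difference was −0.06, and 0.40 after loess. In HF-RPL18 AT4G02340 read 5.57, 6.00 and 5.98 in CSP1-IP and 7.53, 7.46 and 7.50 in total RNA (change 1.59 ± 0.29, adjusted p = 0.0172). It did not pass after loess (1.29, adjusted p = 0.0682), nor without CSP1-FH total RNA replicate 2, CSP1-FH CSP1-IP replicate 1 or HF-RPL18 total RNA replicates 1 or 3 (adjusted p 0.0512 to 0.32). AT3G03580 was enriched in CSP1-FH, at 5.42 and 5.27 in CSP1-IP and 3.37 and 3.32 in total RNA (2.00), and differed by 0.37 in HF-RPL18, a change of 1.63 ± 0.31 (adjusted p = 0.0226) that did not pass without either CSP1-FH total RNA array, CSP1-FH CSP1-IP replicate 1 or any HF-RPL18 total RNA array (adjusted p 0.0512 to 0.246).

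The lower calls were of the opposite kind. AT3G59070 read 3.27 and 3.00 in CSP1-IP and 2.74 and 2.74 in total RNA of cold CSP1-FH, but 5.22, 4.83 and 5.46 in CSP1-IP and 2.80, 2.78 and 2.73 in total RNA of cold HF-RPL18 (−2.00 ± 0.28, adjusted p = 0.00117). Of the 13, 7 had mean levels below the dim level, and 4 were below it on all 4 CSP1-FH arrays. This count too hung on single arrays, since it was 3 without CSP1-FH total RNA replicate 2, 52 without CSP1-FH CSP1-IP replicate 2, 79, 964 and 84 without HF-RPL18 CSP1-IP replicates 1, 2 and 3, 5 without CSP1-FH total RNA replicate 1 or HF-RPL18 total RNA replicate 3, and 8 without HF-RPL18 total RNA replicate 1. AT1G20580 and AT3G59070 passed whichever array was left out, and fitted on the groups compared alone neither did (adjusted p = 0.967).

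One probe set stood out in both contrasts. Probe set 265007_s_at, which the annotation does not name and which was singled out after its values were seen, was the only one to pass for the change with cold and for the difference between lines. It read 5.70 and 5.61 in CSP1-IP of cold CSP1-FH and 2.49 and 2.53 in total RNA of cold CSP1-FH. Elsewhere its CSP1-IP level was low, at 2.99 and 3.15 in non-stress CSP1-FH and 3.18, 3.37 and 2.82 in cold HF-RPL18. Its difference of 3.15 ± 0.20 (8.85-fold, adjusted p = 1.22e-10) exceeded that of non-stress CSP1-FH by 2.48 ± 0.29 (adjusted p = 6.88e-05) and that of cold HF-RPL18 by 2.60 ± 0.26 (adjusted p = 3.64e-06). Both changes also passed after loess and with any array left out. Fitted on the groups compared alone they did not pass (adjusted p = 0.146 and 0.192).

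Against polysomal RNA, the RNA that carries several ribosomes and a comparison that shares the CSP1-IP arrays, CSP1-IP of cold CSP1-FH was higher for 2988 probe sets (13.1%) and lower for 3045 (13.4%). Without polysomal replicate 1 or 2 the calls in both directions numbered 3628 and 3566, against 6033. AT2G15880 read 3.20 and 2.71 in polysomal RNA, so that CSP1-IP minus polysomal RNA was 4.57 where CSP1-IP minus total RNA was 4.30. AT4G32240 read 8.71 and 9.06 in CSP1-IP, 6.11 and 6.34 in total RNA and 4.72 and 4.70 in polysomal RNA, so its difference was 4.18 against polysomal and 2.66 against total RNA. AT5G47435 had 10.75 and 11.23 in CSP1-IP, 8.25 and 8.30 in total RNA and 6.93 and 6.79 in polysomal RNA. These 2 mRNAs were thus lower on polysomes than in total RNA and higher in CSP1-IP than in either.

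Other mRNAs had the reverse order. AT3G14067 read 3.10 and 3.24 in CSP1-IP, 6.29 and 6.20 in total RNA and 7.32 and 7.51 in polysomal RNA. ARA12, for a subtilisin-like protease, read 4.93 and 6.22 in CSP1-IP, 8.27 and 8.39 in total RNA and 9.10 and 9.73 in polysomal RNA. Ribosomal protein genes had a median of 0.31 against polysomal RNA, with 31 higher and 11 lower. Plastid-encoded genes had −0.46 with 18 lower, a smaller median than the −1.09 against total RNA.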

How the data were processed

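The authors deposited 1 log2 expression value per probe set and array, made with RMA per the submitters' processing notes; no version is recorded, nor whether all arrays entered 1 run. Groups came from sample titles, and replicates are biological per the design text. After 64 control probe sets were left out, 22746 were tested in R 4.3.3 with limma 3.58.1 (lmFit on the 38 arrays, 1 mean for each of 16 groups, contrasts, eBayes, 22 residual and 5.22 prior degrees of freedom), with Benjamini-Hochberg adjustment over all of them and a threshold of 0.05. The spread of all groups is shared, since the compared groups hold 2 arrays each; the number of arrays limits the precision. Cyclic loess (normalizeCyclicLoess, fast method) gave the second scaling. The limma step was tested on simulated data.

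The annotation gave 1 gene for 13513 probe sets (59.4%), several for 503 and no entry for 8730; 13436 matched RefSeq TAIR10.1. Named genes were the 12 largest differences each way called in both scalings with no overlap of arrays, the 5 largest each way in the other contrasts, and up to 6 members per list; any other list member in the text was chosen after its values were seen. Members and lists were chosen with earlier results of these data known. Names of cytosolic ribosomal proteins follow general Arabidopsis nomenclature, and 4 lists (cold shock domain proteins, histones, phloem and floral markers) had no named member. Heat shock genes (2 measured) and the clock gene GI were not called. Sequences were not used here.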

Additional observations from a re-analysis of the deposited data

Results flagged for a closer look

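In CSP1-FH the CSP1-IP minus total RNA difference was tested for a change with cold (cold minus non-stress), and limma flagged 8 of the probe sets named here. AT5G20790 changed by −4.36 (SE 0.65), AT5G62280 by −3.62 (SE 0.75) and AT2G30600 by −3.14 (SE 0.59), as described above. AT4G13210 changed by −1.98 (SE 0.41, adjusted p = 0.0489), with CSP1-IP at 3.76 and 4.48 and total RNA at 4.05 and 4.02 in the cold, against 5.53 and 5.36 in CSP1-IP and 3.51 and 3.26 in total RNA without stress. AT2G20480 changed by −1.96 (SE 0.39, adjusted p = 0.0453). It was enriched in CSP1-IP in both conditions, by 1.46 in the cold and 3.43 without stress. Positive changes were 1.92 for AT2G05160 (SE 0.34, adjusted p = 0.015) and 1.83 for AT2G46910 (SE 0.35, adjusted p = 0.0373), and AT2G46910 differed by −0.47 in the cold and −2.30 without stress. Probe set 265007_s_at changed by 2.48. After loess AT2G46910 and AT4G13210 did not pass (adjusted p = 0.0641 each). AT2G05160, AT2G46910, AT4G13210 and AT2G20480 did not pass without cold total RNA replicate 1, cold total RNA replicate 2 or either non-stress total RNA array (adjusted p 0.0551 to 0.257).

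Between the lines in the cold (CSP1-FH minus HF-RPL18), the CSP1-IP minus total RNA difference was higher in CSP1-FH by 2.60 for 265007_s_at, 1.91 for AT1G20580, 1.76 for AT4G35360 (SE 0.32, adjusted p = 0.0172), 1.63 for AT3G03580 and 1.59 for AT4G02340. AT4G35360 was depleted in both lines, by −1.70 in CSP1-FH and −3.46 in HF-RPL18. The difference was lower in CSP1-FH by −2.00 for AT3G59070, −1.56 for AT5G64110 (SE 0.28, adjusted p = 0.0172), −1.53 for AT1G35663 (SE 0.27, adjusted p = 0.0146), −1.42 for AT3G01175 (SE 0.23, adjusted p = 0.00798) and −1.40 for AT1G69470 (SE 0.27, adjusted p = 0.0354). These last 4 read 2.36 to 3.07 in CSP1-IP of CSP1-FH and 3.48 to 4.49 in CSP1-IP of HF-RPL18, around the dim level of 3.13, and AT1G35663 and AT1G69470 did not pass after loess (adjusted p = 0.0577 and 0.0715). Without CSP1-FH total RNA replicate 1 or 2, none of these 4 and AT4G35360 passed (adjusted p 0.0666 to 0.32).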

How the results depend on the processing

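The comparisons were refitted under other settings, the quantile normalisation being added after the data were seen. CSP1-IP minus total RNA had 6267 calls, against 4161 after quantile normalisation, 3969 with only the pools compared and 4065 with only the groups compared, and 3358 to 5057 with 1 array left out. The split of higher and lower calls was 3085 and 3182, but 1527 and 2442 with only the pools and 1442 and 2623 with only the groups. The change with cold had 23 calls, against 45 with the replicate number as a block, 6 with array weights, 7 with a dim filter, 7 with only the pools, 2 with only the groups, and 5 to 439 with 1 array left out. The difference between lines had 13 calls, against 2 with array weights, 3 with the dim filter, 46 after quantile normalisation, 1 with only the pools, 0 with only the groups, and 3 to 964 with 1 array left out. CSP1-IP minus polysomal RNA had 6033 calls, against 3681 with only the pools and 3566 to 4981 with 1 array left out. The cause was not tested. The block gave 7011, 17 and 6716 calls in the other comparisons. The deviations of CSP1-IP and total RNA replicate 1 correlated at 0.156, with 2 pairs. Plastid-encoded genes, however, shifted together between the replicate numbers in CSP1-IP, total and polysomal RNA. The labels do not say whether the numbers pair the samples, and the main fit did not use them. Of values of single genes and lists under alternatives, 2249 kept their call or stayed within the spread, 462 fell below the threshold, 335 moved and 8 turned sign, none of them called. Those 8 are of ATHSP22.0 (−0.07 after loess, −0.12 after quantile normalisation), GI (0.07 after quantile normalisation, −0.91 to 0.02 with 1 array left out), rpoC1 (0.01 after loess, −1.38 to 0.30 with 1 array left out) and rpoC2 (−0.47 to 1.31 with 1 array left out). Signals near the dim level set a floor on what CSP1-IP arrays can show as lower.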

Other observations

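Several enzyme and transporter families, grouped by symbol after the names were seen, held genes that were much lower in CSP1-IP. EXPA4, an expansin that loosens cell walls, read 3.23 and 3.85 in CSP1-IP and 6.89 and 6.69 in total RNA (−3.24, limma adjusted p = 2.44e-06), and EXPA9 differed by −1.67, while 2 of the 26 expansin and xyloglucan hydrolase genes were higher and 3 lower. Among 14 SWEET sugar transporters 4 were lower (28.6%, against 14% of all probe sets), led by SWEET2 (−2.62), SWEET4 (−2.07) and SWEET1 (−1.97). Another 2, both dim, were higher (14.3%, against 13.6%). SWEET4 read 4.13 and 3.14 in CSP1-IP and 5.86 and 5.54 in total RNA. SWEET2 did not pass without cold total RNA replicate 1 or cold CSP1-IP replicate 2 (adjusted p = 0.148 and 0.15). After loess 3 SWEET genes were lower (21.4%, against 9.29% of all probe sets) and 0 higher. The largest positive difference of the family was 0.90.

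UDP-glycosyltransferases, which attach sugars to small molecules, had 3 of 47 higher and 6 lower (median −0.12), among them UGT74D1 (−2.62) and UGT85A2, at 5.73 and 5.79 in CSP1-IP and 7.60 and 8.10 in total RNA (−2.09). Of 20 beta-glucosidases 2 were higher and 4 lower, with BGLU16 at 5.41 and 5.87 in CSP1-IP and 7.17 and 7.05 in total RNA (−1.47, adjusted p = 0.000402). Of 29 serine carboxypeptidase-like genes 2 were higher and 3 lower, with scpl42 at −2.08 and SCPL49 at −1.40. The largest positive differences in these 3 families were 0.82, 0.74 and 0.97. With 1 array left out, the lower members numbered 2 to 7 UDP-glycosyltransferases, 1 to 5 beta-glucosidases and 2 to 4 serine carboxypeptidase-like genes. The shares of lower members in these families (4 of 20 at most among the enzymes) are near the 14% of all probe sets.

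Trichome birefringence-like genes, some of which acetylate cell wall polymers, had 5 of 22 higher (22.7%) and 3 lower (13.6%). Over all probe sets 13.6% were higher and 14% lower. TBL36 read 6.74 and 8.00 in CSP1-IP and 5.01 and 5.59 in total RNA (2.07, adjusted p = 0.00587). TBL36 did not pass without cold total RNA replicate 1 or cold CSP1-IP replicate 2 (adjusted p = 0.0744 and 0.111). Without cold total RNA replicate 1 the family had 1 higher and 0 lower, and without cold CSP1-IP replicate 2 it had 2 higher and 1 lower. After loess 3 were higher and 0 lower. Of 42 probe sets of AGAMOUS-like genes, most of them dim, 2 were higher (4.76%) and 1 lower (2.38%), and after loess 1 was higher and 0 lower. Among 12 ubiquitin-conjugating enzymes 2 were higher in the deposited values and 4 after loess, and 0 were lower in either; 0 were higher without cold CSP1-IP replicate 1 or cold total RNA replicate 2. Of 15 tetraspanins 0 were higher and 2 lower (13.3%, against 14% of all probe sets). The higher share of ubiquitin-conjugating enzymes was 16.7%, against 13.6% of all probe sets, and after loess 33.3% against 9.58%. The tetraspanin share, and that of ubiquitin-conjugating enzymes in the deposited values, are thus near those of all probe sets.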
